A study of Mus musculus with 12 samples.

Results

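The comparison described here set untreated mouse embryonic stem cells labelled as a Bod1L knockout against wild-type cells treated with etoposide, a cross between genotype and treatment in which neither variable was held constant. It used 6 of the 12 libraries of the series, 3 in each state, and the 14157 genes, of 41079 in the tables, whose mean expression over these 6 libraries was at least 1 TPM (a transcript abundance corrected for gene length that adds up to the same sum in every library). Embryonic stem cells are pluripotent cells grown from the early embryo. The knockout group carried the genotype label Bod1L KO, received no etoposide and has tamoxifen in its sample names. The etoposide group carried the genotype label WT, and its names hold etoposide but no tamoxifen. A group of 3 untreated wild-type libraries was used to place both states on a shared baseline. Genotype, tamoxifen and etoposide all differed between the compared states, so their effects cannot be told apart in a direct difference. The labels give no dose or duration for either agent, no driver for a recombinase, no description of the deleted part of the gene and no statement on whether the cells were a clone. The replicates are called biological, but separate cultures are not described, so a p-value here reflects only how far these libraries scatter.

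Bod1l encodes a large subunit of the SETD1A complex, a methyltransferase for lysine 4 of histone H3. The series was titled after how the gene bears on transcripts of damage repair factors. Etoposide traps topoisomerase II on the DNA it has cut and so leaves double-strand breaks. Cells with such breaks activate the kinases ATM and ATR and stabilise the transcription factor p53, which switches on genes for cell cycle arrest, repair and cell death. Mouse embryonic stem cells divide fast, rely heavily on homologous recombination and have a weak checkpoint at the end of G1. In this tissue culture setting, a small share of cells can also pass through a state that resembles the embryo at its earliest cleavage stage, marked by Zscan4 and its relatives.

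The libraries held 5.23 to 6.51 gigabases of aligned sequence in the untreated knockout and 5.78 to 7.04 gigabases in etoposide-treated wild type, derived from the ratio of deposited coverage to FPKM. Log expression of all genes tested correlated at r = 0.9941 to 0.9944 among the knockout libraries and at 0.9947 to 0.9948 among the treated wild-type libraries. Between the states it correlated at 0.977 to 0.9789, so the states lay farther apart than replicates did. These values are across genes, which are not independent. Of 8 stem cell markers, 7 had a row in the tables, and their summed level was 7135 to 7252 TPM in the untreated knockout and 7357 to 7693 TPM in etoposide-treated wild type. Of the 7, Nanog, Zfp42 and Esrrb were higher in the untreated knockout and Dppa5a, the most abundant of them, was lower at 3259 ± 15.9 TPM, against 3932 ± 195 TPM in etoposide-treated wild type (SD, n = 3 each). The 7 fibroblast markers summed to 6.01 to 7.27 TPM in the untreated knockout and 7.36 to 9.25 TPM in etoposide-treated wild type, with Lum at 0 in all 6 libraries and Col3a1 and Dcn at or near 0. Of those 7 markers, 3 reached a mean of 1 TPM, and 2 of them, Col1a1 and Pdgfra, were lower in the untreated knockout than in etoposide-treated wild type. Against untreated wild type, their knockout values did not pass the test (-0.12 and 0.21), while their etoposide values did (0.33 and 0.65). RNA was pooled from whole cultures, so fewer cells of a kind and less RNA per cell cannot be told apart.

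Of the 14157 genes, 7555 differed between the untreated knockout and etoposide-treated wild type at an adjusted p under 0.05 (limma on log2(TPM + 1), Benjamini-Hochberg over all genes). A total of 3547 genes were higher in the untreated knockout, which is 25.1% of those tested, and 4008 were lower, which is 28.3%. The lower side held most of the sizeable differences. At 1.5-fold or more, 329 genes were higher and 1414 were lower, and at 2-fold or more the counts were 84 and 401. These counts depended on the scale: with FPKM they were 130 and 912 at 1.5-fold and 32 and 223 at 2-fold, and with a pseudocount of 0.1 there were 503 higher at 1.5-fold and 160 higher and 694 lower at 2-fold. With a filter of at least 5 TPM, 148 and 916 genes passed 1.5-fold and 34 and 266 passed 2-fold, and quantile normalization gave 533 higher at 1.5-fold. At 4-fold or more they came close to each other, with 18 higher and 19 lower. The median difference over all genes was -0.0027 on the log2 scale. All 3 libraries of one state lay beyond all 3 of the other for 3408 of the higher genes and 3900 of the lower genes. With quantile normalization in place of the deposited scaling, 56.3% of the called genes were higher, against 46.9% as deposited.

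**Figure D1:**
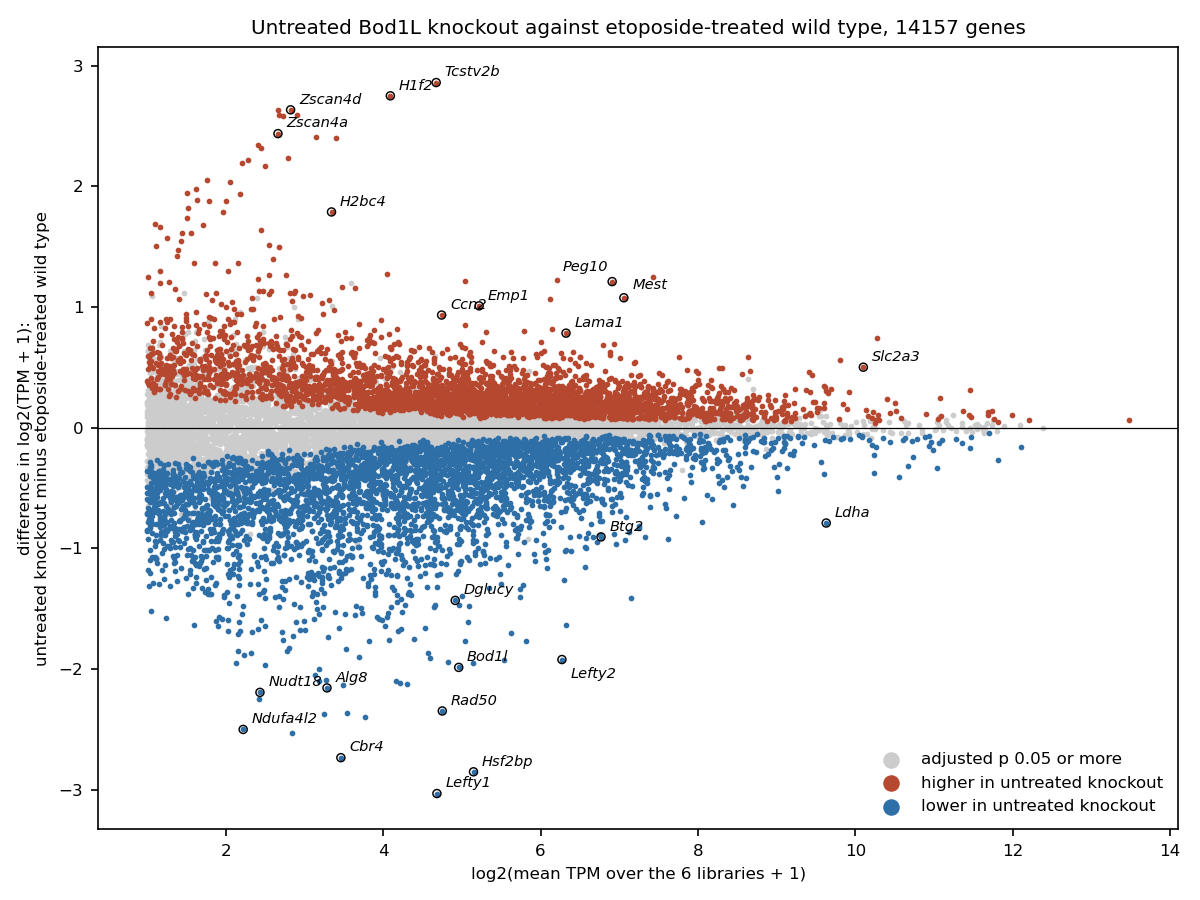
Difference in log2(TPM + 1) between the untreated knockout and etoposide-treated wild type (vertical axis, positive where the knockout was higher) against log2 of the mean TPM over the 6 libraries plus 1 (horizontal axis), 1 point per gene, coloured where limma's adjusted p was under 0.05. The 401 genes lower by at least 2-fold outnumber the 84 that were higher by as much, and circled genes are named in the text.

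Set against the same 3 untreated wild-type libraries, the states were displaced in different ways. The untreated knockout had 3970 genes higher (28.0%) and 3033 lower (21.4%) than untreated wild type. Etoposide-treated wild type had 2972 genes higher (21.0%) and 1904 lower (13.4%) than untreated wild type. At 2-fold or more the knockout had 121 genes higher and 198 lower. Etoposide-treated wild type had 357 genes higher and 0 lower at that size, with 49 lower at 1.5-fold or more. Both sets of values rest on the untreated wild-type libraries, so they are given side by side for each gene and were not tested against each other. The direct difference between the states is the first of these values minus the second.

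Bod1l itself (GRCm39 chr5:41944881-42001695, minus strand) stood at 12.0, 11.2 and 11.5 TPM in the untreated knockout libraries, against 46.5, 51.1 and 48.6 TPM in the etoposide-treated wild-type libraries. Its values did not overlap between the states and differed by -1.99 ± 0.05 in log2(TPM + 1) (estimate ± SE, as for all log2 differences given here with ±; limma adjusted p = 1.1e-10). Untreated wild type averaged 49.3 TPM, so the treated wild-type cells held Bod1l at a level whose difference from untreated cells, -0.02 on the log2 scale, did not pass the test. The tables hold 1 value per gene, so the deleted part of the transcript was not examined.

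The largest losses in the untreated knockout were in a left-right signalling inhibitor, several meiotic or repair genes and a group of mitochondrial enzymes. Lefty1 (GRCm39 chr1:180762587-180765966, plus strand), a secreted inhibitor of Nodal, was at 4.25, 5.00 and 4.57 TPM in the untreated knockout, against 47.6, 41.9 and 45.0 TPM in etoposide-treated wild type. The difference of -3.03 ± 0.07 on the log2 scale was the lowest of any gene ranked. Its paralog Lefty2 was at 32.5, 29.4 and 31.9 TPM in the untreated knockout and 125, 110.4 and 128 TPM in etoposide-treated wild type. Neither gene's libraries overlapped between the states, which was a condition for a place in the ranking. Against untreated wild type, Lefty1 differed by -2.75 in the knockout and 0.28 after etoposide, and Lefty2 by -2.10 and -0.18, of which the last did not pass the test.

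Hsf2bp, which acts in meiotic recombination, stood at 7.39, 6.40 and 9.30 TPM in the untreated knockout and 66.2, 61.6 and 55.9 TPM in etoposide-treated wild type. Cbr4, a mitochondrial carbonyl reductase of fatty acid synthesis, stood at 2.13, 1.96 and 1.58 TPM in the untreated knockout and 18.9, 17.3 and 18.3 TPM in etoposide-treated wild type. The highest knockout library of either gene lay far below the lowest treated wild-type library. Gatb, a subunit of the mitochondrial glutaminyl-tRNA amidotransferase, differed by -2.36 ± 0.09, and Tfb1m, which methylates mitochondrial ribosomal RNA, by -2.11 ± 0.08. Alg8, a glucosyltransferase of N-glycan assembly, differed by -2.15 ± 0.09, and Ercc6l2, a helicase-like repair factor, by -2.10 ± 0.08. The differences of Ccdc191, Det1 and Ccdc91 were -2.37 ± 0.11, -2.09 ± 0.13 and -2.05 ± 0.12. Separation of the 3 knockout libraries from the 3 treated wild-type libraries was a condition for ranking a gene. It therefore held by choice for these 7 genes, and for Hsf2bp and Cbr4. Among genes of at least 20 TPM, Mmachc (vitamin B12 processing), Glod4, Lyplal1 and Coq2 (ubiquinone synthesis) differed by -1.95 ± 0.04, -1.92 ± 0.05, -1.90 ± 0.07 and -1.87 ± 0.06.

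For most of these genes, the displacement from untreated wild type lay on the knockout side. Mmachc differed by -1.96 in the knockout and -0.01 after etoposide, and Alg8 by -2.18 and -0.03. Nudt18 and Mfsd4b4 had the largest etoposide values among those named. Nudt18, a hydrolase of oxidised nucleotides, was at 0.864, 1.08 and 0.887 TPM in the untreated knockout, against 7.93, 7.49 and 8.22 TPM in etoposide-treated wild type and a mean of 2.23 TPM in untreated wild type. It was thus below baseline in the knockout (-0.73) and above it after etoposide (1.46), and both differences passed the test. Mfsd4b4 differed by -1.55 in the knockout and 0.70 after etoposide, which also passed. Ndufa4l2, a hypoxia-induced mitochondrial protein, was listed at 0.684, 0.380 and 0 TPM in the untreated knockout, against 8.19, 3.42 and 9.33 TPM in etoposide-treated wild type. Its libraries did not overlap, as the ranking required.

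**Figure D2:**
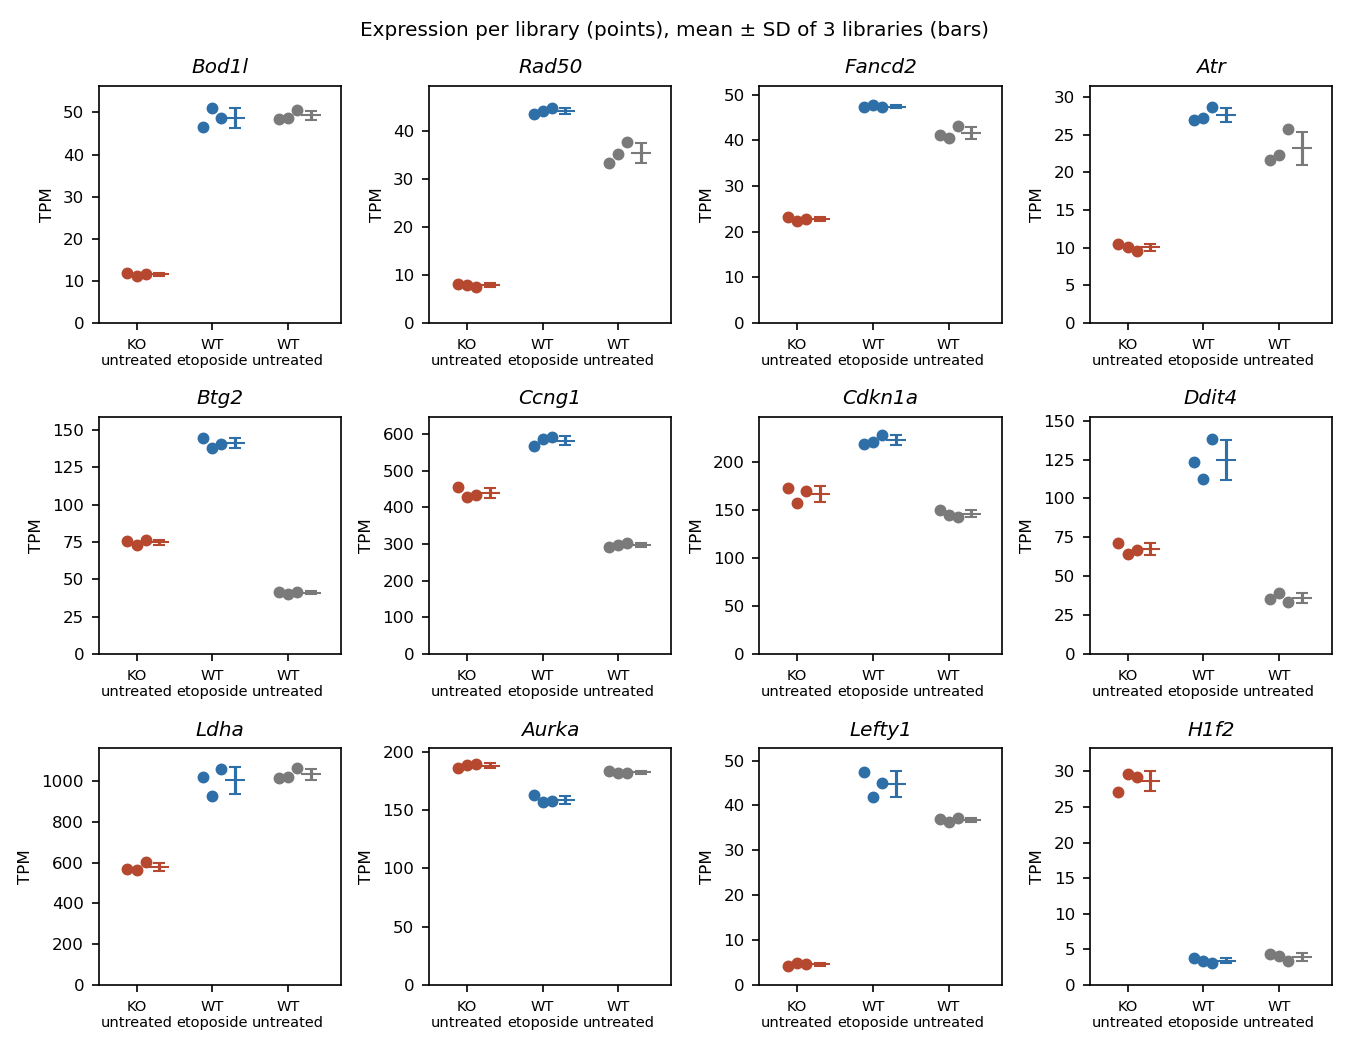
TPM of 12 genes in each library (points) with the mean ± SD of 3 libraries (bars), from left to right for the untreated knockout, etoposide-treated wild type and untreated wild type. The knockout libraries lie apart from the treated wild-type libraries in every panel, below them except for Aurka and H1f2.

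The largest gains in the untreated knockout were in genes of the 2-cell-like state. Of 40 names on that list, 34 had a row in the tables and 25 passed the expression filter. Of the 25, 23 were higher and 2 were lower in the untreated knockout, beside 25.1% and 28.3% of all genes. A member close to 0 in treated wild type could pass the filter only through the knockout, so the count is a description. Tcstv2b was at 46.6, 42.7 and 41.9 TPM in the untreated knockout, against 6.82, 3.49 and 5.64 TPM in etoposide-treated wild type. Zscan4d, which acts on telomeres and marks the state, was at 12.6, 10.4 and 10.7 TPM in the untreated knockout, against 0.892, 0.991 and 1.00 TPM in etoposide-treated wild type. Zscan4a was at 11.0, 10.6 and 7.59 TPM in the untreated knockout and 0.790, 1.19 and 0.910 TPM in etoposide-treated wild type. None of the 3 genes overlapped between the states, as the ranking that named them required. Their differences were 2.86 ± 0.17, 2.63 ± 0.14 and 2.44 ± 0.16, and those of Eif1ad3, Eif4a3l1 and Usp17lb were 2.63 ± 0.17, 2.24 ± 0.13 and 2.34 ± 0.19. Zscan5b ran the other way, at 8.39, 9.48 and 8.81 TPM in the untreated knockout and 15.9, 18.2 and 18.5 TPM in etoposide-treated wild type (-0.91 ± 0.09). Against untreated wild type the 25 tested members had 23 higher and 2 lower in the knockout, with a median of 1.87. After etoposide they had 0 higher and 1 lower, with a median of 0.02. Over all genes the shares were 28.0% higher and 21.4% lower in the knockout, and 21.0% higher and 13.4% lower after etoposide. Most of these genes belong to families of near-identical copies, so the split of reads among copies is uncertain.

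The highest genes of at least 20 TPM included imprinted genes and genes for secreted or membrane proteins. Peg10, an imprinted gene derived from a retrotransposon, was at 170.3, 169 and 161 TPM in the untreated knockout and 71.9, 73.9 and 68.9 TPM in etoposide-treated wild type. Mest, an imprinted hydrolase gene, was at 182, 182 and 176 TPM in the untreated knockout and 79.4, 91.2 and 84.0 TPM in etoposide-treated wild type. Ccn2, a matrix-associated growth factor, was at 35.3, 34.4 and 32.9 TPM in the untreated knockout and 17.9, 17.4 and 16.9 TPM in etoposide-treated wild type. As the ranking required, these 3 genes did not overlap between the states, and they differed by 1.21 ± 0.04, 1.08 ± 0.05 and 0.93 ± 0.05. Each was above untreated wild type in the knockout and below it after etoposide, with Mest at 0.63 and -0.45. Emp1, an epithelial membrane protein gene, and Kirrel1, a cell adhesion gene, differed by 1.01 ± 0.08 and 0.80 ± 0.11. Emp1 was displaced by 0.21 in the knockout and -0.80 after etoposide, and Kirrel1 by 0.04 and -0.75, and in both genes the etoposide value alone passed the test. Tsix, the antisense partner of Xist, differed by 0.85 ± 0.07, and whether reads of the pair were separated by strand is not stated. The list of 32 tested imprinted genes as a whole had 12 higher and 6 lower, beside 25.1% higher and 28.3% lower over all genes. Among the lower ones was Copg2, the neighbour of Mest, at -1.10 ± 0.07.

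Lars2 and Mir6236 also ranked among the higher genes, and both annotations collect ribosomal RNA. Lars2 was at 263, 271 and 183 TPM in the untreated knockout, against 84.1, 75.5 and 148 TPM in etoposide-treated wild type. Mir6236 was at 103, 125 and 77.0 TPM in the untreated knockout, against 35.6, 32.9 and 62.9 TPM in etoposide-treated wild type. The ribosomal entry AY036118 averaged 7.05 ± 1.08 TPM in the untreated knockout and 4.16 ± 0.68 TPM in etoposide-treated wild type (SD, n = 3 each). In all 3 annotations the third library of each group lay nearest to the other group. The labels describe poly(A) selection followed by ribosomal RNA removal, and the part of either step in other differences was not tested.

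Targets of p53 were lower in the untreated knockout than in etoposide-treated wild type. Of the 55 targets tested, 46 were lower and 3 were higher, beside 28.3% lower and 25.1% higher over all genes, with a median difference of -0.405. Btg2 (GRCm39 chr1:134002603-134006893, minus strand), an antiproliferative cofactor, was at 75.7, 73.1 and 76.1 TPM in the untreated knockout and 145, 138 and 141 TPM in etoposide-treated wild type. Ptp4a3, a phosphatase, was at 89.5, 93.7 and 91.3 TPM in the untreated knockout and 181, 169 and 175 TPM in etoposide-treated wild type. Cdkn1a, the p21 inhibitor of cyclin-dependent kinases, was at 172, 157 and 169.8 TPM in the untreated knockout and 218, 220.5 and 228 TPM in etoposide-treated wild type. The groups did not overlap for any of the 3 genes. They differed by -0.90 ± 0.03, -0.93 ± 0.04 and -0.42 ± 0.04 (limma adjusted p = 1.3e-09, 1.5e-08 and 1.2e-06). Abhd4, a lipid hydrolase, and Ccng1, cyclin G1, differed by -0.73 ± 0.03 and -0.41 ± 0.03, and Tap1, a peptide transporter of antigen presentation, by -1.22 ± 0.09.

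Being lower than treated wild type did not place the knockout at baseline. Relative to untreated wild type, 48 of the 55 targets were higher and 2 lower in the knockout, with a median of 0.41. After etoposide 48 were higher and 1 lower, with a median of 0.84. Over all genes the shares were 28.0% higher and 21.4% lower in the knockout, and 21.0% higher and 13.4% lower after etoposide. Btg2 differed from untreated wild type by 0.85 in the knockout and 1.75 after etoposide. Ptp4a3 differed by 0.70 and 1.63, Cdkn1a by 0.19 and 0.60, and Ccng1 by 0.56 and 0.97. Dglucy, a mitochondrial D-glutamate cyclase, did not follow that order. It was at 15.3, 15.5 and 15.2 TPM in the untreated knockout, against 43.5, 43.0 and 42.7 TPM in etoposide-treated wild type and a mean of 21.7 TPM in untreated wild type, so the knockout lay below baseline (-0.47). The 3 higher members were Trp53cor1, Sesn1 and Tigar, the last of which lost its call under some alternative settings. Trp53cor1, a long noncoding RNA beside Cdkn1a, was at 7.18, 6.13 and 5.89 TPM in the untreated knockout and 2.27, 2.45 and 2.38 TPM in etoposide-treated wild type (1.13 ± 0.09). Sesn1, a stress-induced regulator of growth signalling, was at 22.2, 23.2 and 21.9 TPM in the untreated knockout and 15.8, 16.1 and 17.7 TPM in etoposide-treated wild type. For both, the difference of treated from untreated wild type did not pass the test (-0.15 and 0.05), while that of the knockout did (0.98 and 0.46).

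The p53 binding element of Cdkn1a is shown because this gene is the classical p53 target. A strict form of the element was searched on both strands in the 250 bases before annotated starts in the RefSeq promoter table (GRCm38.p6), where 44 of the 55 targets had a window. It was found in 1 of the 44, beside 0.57% of the 27025 genes in the table, and the one was Cdkn1a, before an upstream alternative start at chr17:29090729-29090978. Capitals mark the match.
Cdkn1a: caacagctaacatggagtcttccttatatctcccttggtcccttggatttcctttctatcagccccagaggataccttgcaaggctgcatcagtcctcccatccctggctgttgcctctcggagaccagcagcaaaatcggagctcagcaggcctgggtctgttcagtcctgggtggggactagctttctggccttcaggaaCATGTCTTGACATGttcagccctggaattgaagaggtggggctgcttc

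Of 13 regulators of p53, 1 was higher (7.69%) and 4 were lower (30.8%), beside 25.1% and 28.3% of all genes. Trp73, a relative of p53, was at 12.7, 12.0 and 12.9 TPM in the untreated knockout and 28.6, 29.4 and 29.0 TPM in etoposide-treated wild type. Mdm4, an inhibitor of p53, was at 269, 256 and 252 TPM in the untreated knockout and 348, 374 and 348 TPM in etoposide-treated wild type. Both were above untreated wild type in the knockout (0.58 and 0.49) and farther above it after etoposide (1.73 and 0.94). Ppp1r13l, which encodes the inhibitor iASPP, differed by -1.08 ± 0.05, and Ppp1r13b, which encodes ASPP1, by -0.33 ± 0.06. Of 23 apoptosis genes outside the p53 list, 5 were higher and 10 lower (21.7% and 43.5%), beside 25.1% and 28.3% of all genes. Casp9, an initiator caspase, and Htra2, a mitochondrial protease, differed by -0.46 ± 0.05 and -0.53 ± 0.04, and for both the knockout value (-0.47 and -0.53) passed the test while the etoposide value did not. The pore-forming Bak1 and its activator Bid were higher by 0.19 ± 0.04 and 0.19 ± 0.03.

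**Figure D3:**
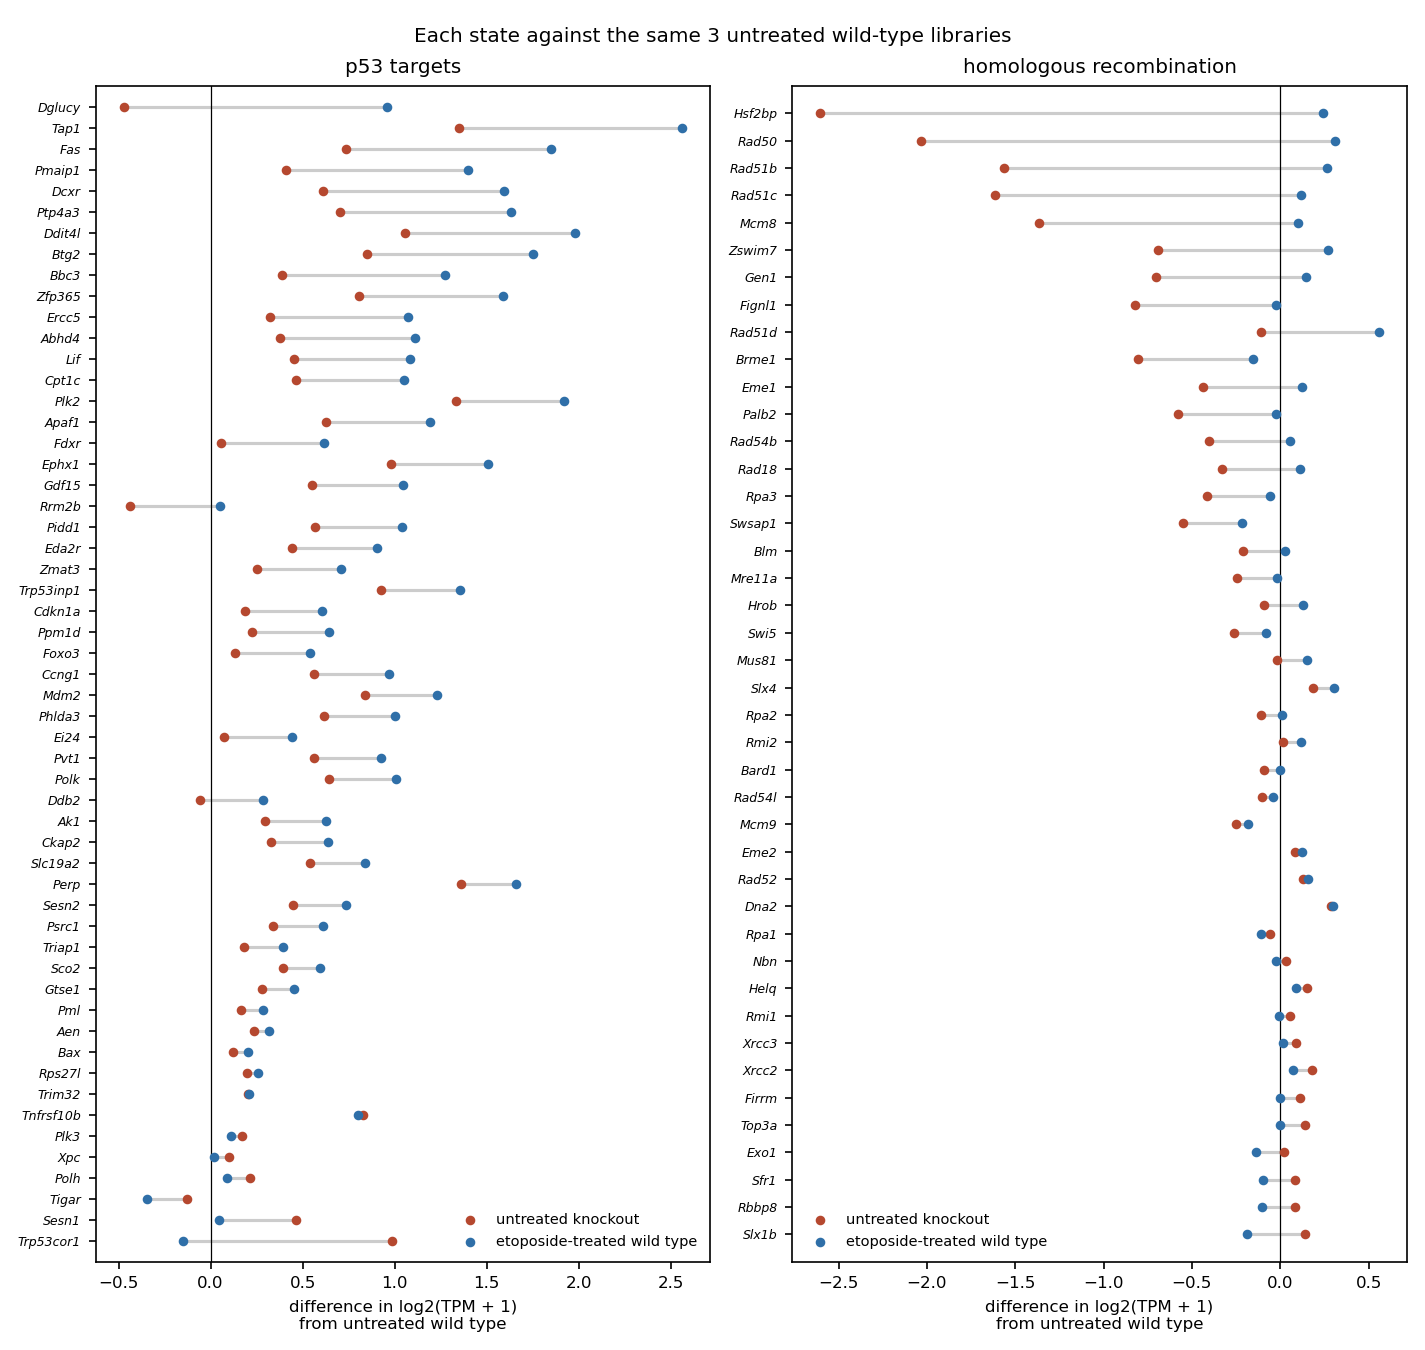
Difference in log2(TPM + 1) from untreated wild type for genes of the p53 target list (left) and of the homologous recombination list (right, with some members not shown), with the untreated knockout and etoposide-treated wild type as separate points joined by a line. Most p53 targets have both points right of 0 with the knockout nearer to it (medians 0.41 and 0.84), whereas the recombination genes with long lines have the knockout point left of 0.

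Homologous recombination genes were lower in the untreated knockout for 24 of 45 tested members and higher for 6, with a median of -0.17, beside 28.3% lower and 25.1% higher over all genes. Rad50 (GRCm39 chr11:53540346-53598146, minus strand), part of the complex with Mre11a and Nbn that senses and trims broken ends, was at 8.21, 7.96 and 7.42 TPM in the untreated knockout and 43.4, 44.0 and 44.6 TPM in etoposide-treated wild type. Rad51c, which acts in strand exchange, was at 3.57, 3.59 and 3.51 TPM in the untreated knockout and 14.2, 14.1 and 14.1 TPM in etoposide-treated wild type. Mcm8, a helicase that works with Mcm9, was at 9.75, 9.19 and 9.04 TPM in the untreated knockout and 27.4, 27.3 and 28.0 TPM in etoposide-treated wild type. In all 3 genes the libraries were far apart, and the differences were -2.35 ± 0.05, -1.73 ± 0.06 and -1.47 ± 0.05 (limma adjusted p = 5.6e-11, 1.3e-09 and 8.7e-10). Fignl1, an ATPase of the pathway, differed by -0.80 ± 0.04, and Mre11a, the nuclease partner of Rad50, by -0.22 ± 0.04. Of the higher members, Slx1b, a nuclease subunit, differed by 0.33 ± 0.06. Sfr1, a cofactor of strand exchange, and Rbbp8, which starts end resection, differed by 0.18 ± 0.03 and 0.18 ± 0.05.

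Against untreated wild type the recombination list had 6 higher and 24 lower in the knockout, and 10 higher and 7 lower after etoposide. Over all genes the shares were 28.0% higher and 21.4% lower in the knockout, and 21.0% higher and 13.4% lower after etoposide, so the etoposide counts of the list were near those of all genes. Rad50 differed by -2.03 in the knockout and 0.31 after etoposide, and both passed the test in opposite directions. Rad51c differed by -1.61 and 0.12, and Mcm8 by -1.37 and 0.10, where the etoposide value did not pass. Fignl1 differed by -0.82 in the knockout and -0.02 after etoposide.

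The Fanconi anemia genes, which repair crosslinks between DNA strands, had 13 lower and 3 higher of 19 tested, with a median of -0.24, beside 28.3% lower and 25.1% higher over all genes. Fancd2, the central protein that the pathway ubiquitinates, was at 23.1, 22.4 and 22.7 TPM in the untreated knockout and 47.2, 47.7 and 47.3 TPM in etoposide-treated wild type. These values did not overlap and differed by -1.03 ± 0.03. Fancl, the ubiquitin ligase, Fan1, a nuclease, and Brip1, a helicase, differed by -0.62 ± 0.05, -0.84 ± 0.07 and -0.70 ± 0.08. Fancm, the translocase that recruits the core complex, was at 76.5, 73.6 and 71.5 TPM in the untreated knockout and 54.2, 59.1 and 58.2 TPM in etoposide-treated wild type, a difference of 0.36 ± 0.04. Fancm was above untreated wild type in the knockout (0.20) and below it after etoposide (-0.17), while Fancd2 was below it in the knockout (-0.84) and above it after etoposide (0.18).

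Of 20 end joining genes tested, 9 were lower and 4 higher, beside 28.3% lower and 25.1% higher over all genes. Xrcc5, the Ku80 subunit that binds broken ends, was at 73.2, 76.4 and 74.2 TPM in the untreated knockout and 142, 135 and 140.1 TPM in etoposide-treated wild type. Prkdc, the DNA-dependent protein kinase that Ku recruits, was at 10.9, 10.6 and 10.9 TPM in the untreated knockout and 22.2, 24.4 and 23 TPM in etoposide-treated wild type. Shld2, a shieldin subunit that protects ends from resection, was at 12.4, 12.7 and 14 TPM in the untreated knockout and 29.1, 32.5 and 32.1 TPM in etoposide-treated wild type. All 3 sets of libraries were separate, with differences of -0.89 ± 0.03, -1.04 ± 0.05 and -1.20 ± 0.06. Shld2 and Prkdc lay on both sides of baseline, at -0.48 and -0.78 in the knockout and 0.72 and 0.25 after etoposide, whereas Xrcc5 was at -0.93 and -0.04. Rif1 and Mad2l2, which act with shieldin, were higher by 0.27 ± 0.04 and 0.33 ± 0.05, and the nuclease gene Dclre1c by 0.28 ± 0.07.

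In the damage checkpoint list, 11 of 24 genes were lower and 3 higher, beside 28.3% and 25.1% of all genes. Atr, the kinase that senses single-stranded DNA at stalled forks, was at 10.4, 10.1 and 9.56 TPM in the untreated knockout and 27.0, 27.2 and 28.7 TPM in etoposide-treated wild type. Mdc1, which binds marked chromatin at breaks, was at 56.5, 56.8 and 56.6 TPM in the untreated knockout and 84.3, 84.5 and 85.1 TPM in etoposide-treated wild type. The groups were separate in both genes, which differed by -1.38 ± 0.07 and -0.57 ± 0.03. Rnf168, a ubiquitin ligase that acts after Mdc1, and Topbp1, an activator of Atr, differed by -0.71 ± 0.04 and -0.35 ± 0.02. H2ax, the histone variant that is phosphorylated at breaks, ran the other way, at 800.1, 759.8 and 854 TPM in the untreated knockout and 609, 587 and 585 TPM in etoposide-treated wild type. It was higher by 0.44 ± 0.04, with 0.48 in the knockout and 0.04 after etoposide relative to untreated wild type. Etaa1, another activator of Atr, was higher by 0.25 ± 0.05, and here the etoposide side was displaced (-0.28) while the knockout value of -0.02 did not pass the test.

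Base excision repair had 14 of 25 genes lower and 5 higher, beside 28.3% and 25.1% of all genes. The glycosylase genes Neil2, Mpg and Ogg1, which remove damaged bases, differed by -1.58 ± 0.11, -1.13 ± 0.10 and -0.45 ± 0.05. Apex1, which cuts at the sites they leave, was at 307, 299 and 312 TPM in the untreated knockout and 352, 374 and 366 TPM in etoposide-treated wild type (-0.25 ± 0.03), and both states were below the untreated wild-type mean of 417 TPM. Nucleotide excision repair had 9 lower and 7 higher of 25 (36.0% and 28.0%), near the shares over all genes. Its subunits of the TFIIH complex parted, with Gtf2h3 and Gtf2h4 lower (-0.81 ± 0.04 and -0.70 ± 0.05) and Gtf2h1, Ercc2 and Ercc3 higher by 0.25 ± 0.03, 0.20 ± 0.04 and 0.17 ± 0.03. Mismatch repair had 5 lower and 4 higher of 12 (41.7% and 33.3%), with differences of -1.0 ± 0.05 for Mlh3 and 0.31 ± 0.06 for Msh3.

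Differences were small in the enzymes that etoposide acts on, and an enzyme that undoes its lesions was somewhat higher in the untreated knockout. Top2a, the replicative topoisomerase II, averaged 381 ± 6.59 TPM in the untreated knockout and 398 ± 6.17 TPM in etoposide-treated wild type (SD, n = 3 each), a difference of -0.07 ± 0.03 that did not pass the test. Top2b averaged 16.4 ± 0.672 TPM in the untreated knockout and 18.7 ± 0.432 TPM in etoposide-treated wild type, a difference of -0.18 ± 0.06 whose call was lost under some alternative settings. Top2a is named outside the naming rule, after its values were seen. Tdp2, which frees topoisomerase II from DNA ends, was at 90.1, 91.7 and 83.3 TPM in the untreated knockout and 75.6, 75.4 and 75.0 TPM in etoposide-treated wild type (0.23 ± 0.05). Top3b and Top1mt, a topoisomerase that acts on DNA and RNA and a mitochondrial one, were lower in the untreated knockout, with differences of -0.41 ± 0.03 and -0.90 ± 0.10. For both of these, the displacement from untreated wild type passed the test after etoposide (0.47 and 0.68) and not in the knockout (0.06 and -0.22).

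**Figure D4:**
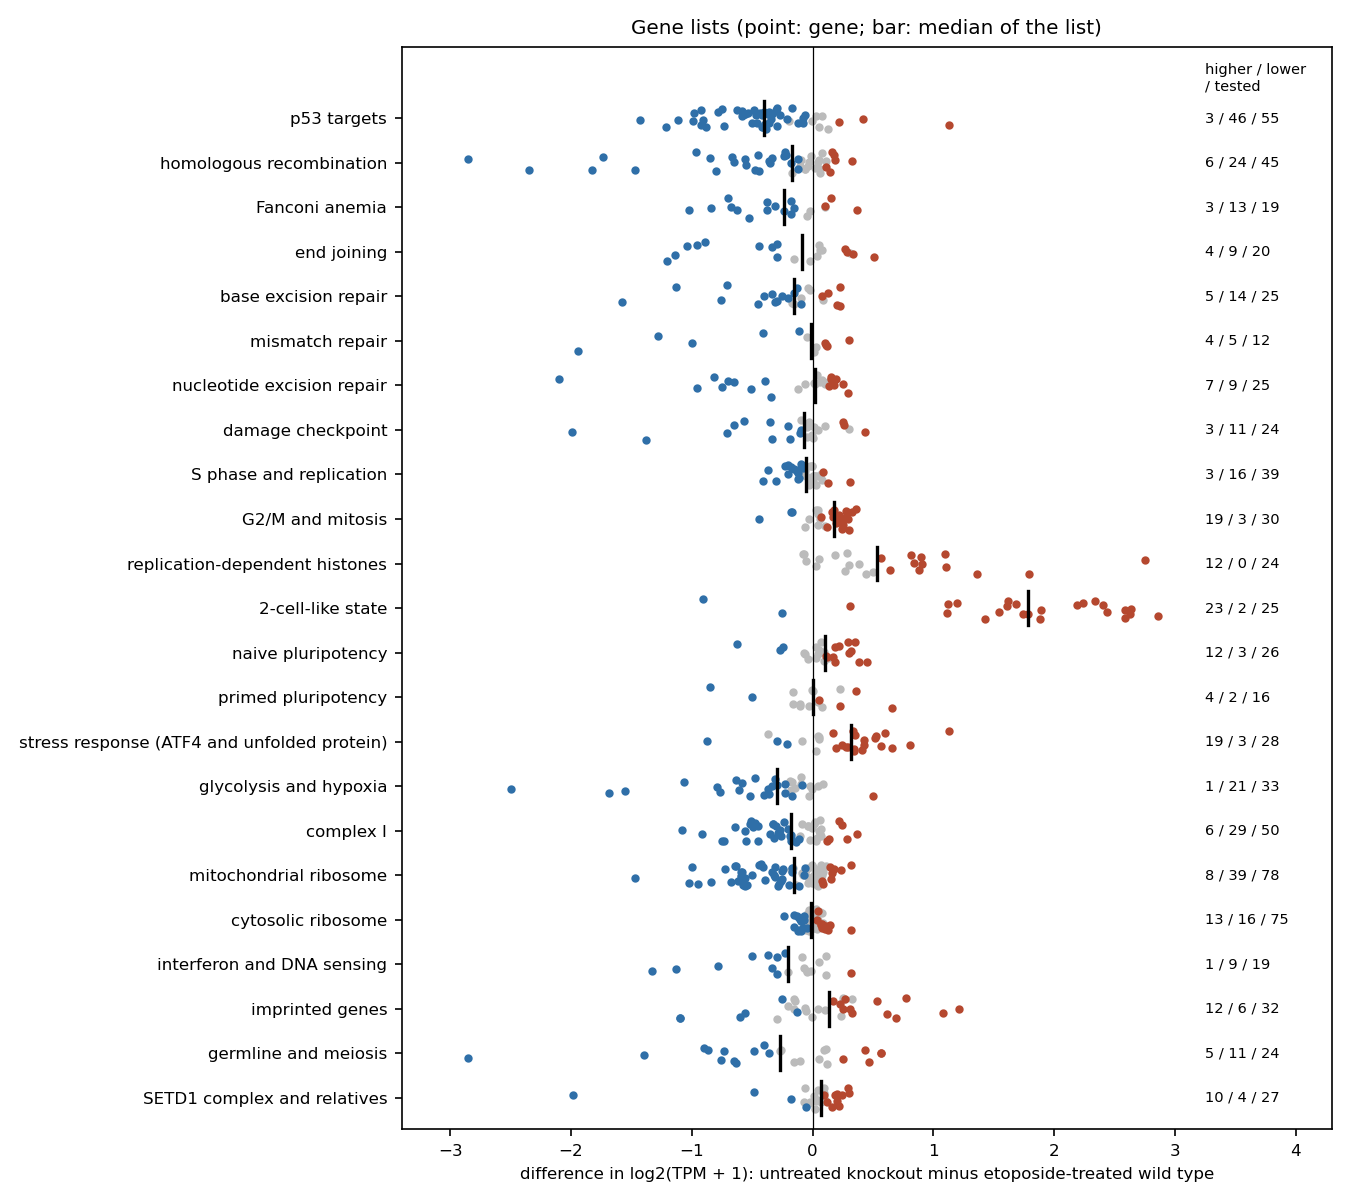
Difference in log2(TPM + 1) between the untreated knockout and etoposide-treated wild type for the tested genes of 23 lists, 1 point per gene, in red or blue where higher or lower at an adjusted p under 0.05 and grey otherwise, with a bar at each list's median. The p53 targets have 46 of 55 genes lower, while G2/M and stress genes have 19 of 30 and 19 of 28 higher.

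Genes of G2 and mitosis were higher in the untreated knockout for 19 of 30 members and lower for 3, with a median of 0.175. Over all genes 25.1% were higher and 28.3% lower. The differences within the list were small. Aurka, a kinase of spindle assembly, was at 186, 189 and 189.5 TPM in the untreated knockout and 163, 157 and 158 TPM in etoposide-treated wild type. Cdca8, a subunit of the chromosomal passenger complex, was at 204, 202 and 205 TPM in the untreated knockout and 163, 160.3 and 164 TPM in etoposide-treated wild type. Neither overlapped between the states, and they differed by 0.24 ± 0.02 and 0.32 ± 0.02. Hmmr, a spindle protein, and Espl1, the separase protease, differed by 0.36 ± 0.04 and 0.24 ± 0.02. Ccnb2, cyclin B2, ran the other way, at 109, 109 and 102 TPM in the untreated knockout and 151, 139 and 147 TPM in etoposide-treated wild type (-0.44 ± 0.04), and Ube2c, the ubiquitin carrier of the anaphase-promoting complex, was lower too (-0.18 ± 0.02). Against untreated wild type the list had 9 higher and 5 lower in the knockout, with a median of 0.03, and 1 higher and 15 lower after etoposide, with a median of -0.10. The shares of all genes were 28.0% higher and 21.4% lower in the knockout, and 21.0% higher and 13.4% lower after etoposide. Aurka differed by 0.04 in the knockout, which did not pass the test, and -0.20 after etoposide, while Ccnb2 differed by -0.55 and -0.11.

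Promoters of mitotic genes commonly carry the CCAAT box, which the factor NF-Y binds. The letters CCAAT were found on either strand in 23 of the 26 G2 and mitosis genes with a RefSeq window (88.5%), beside 37.5% of the 27025 genes in the table. They were also in 12 of 12 windows of cholesterol synthesis genes (100%), so such a share is not particular to mitotic genes. The mitochondrial ribosome list had 36.2%. The windows of 3 genes are shown, Aurka and Cdca8 from the higher side and Ccnb2 from the lower, because the box was present in all 3 whichever way they moved. They are the 250 bases before a start in GRCm38.p6, at chr2:172370571-172370820, chr4:124936918-124937167 and chr9:70421555-70421804, all on the minus strand and written along it. Capitals mark the box, which reads ATTGG where it lies on the other strand. A match describes the letters alone.
Aurka: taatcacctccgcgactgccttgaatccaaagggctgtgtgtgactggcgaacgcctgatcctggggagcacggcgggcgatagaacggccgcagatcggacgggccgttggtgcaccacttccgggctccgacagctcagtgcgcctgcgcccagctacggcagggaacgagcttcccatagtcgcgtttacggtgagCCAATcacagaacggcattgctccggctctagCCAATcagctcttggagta
Cdca8: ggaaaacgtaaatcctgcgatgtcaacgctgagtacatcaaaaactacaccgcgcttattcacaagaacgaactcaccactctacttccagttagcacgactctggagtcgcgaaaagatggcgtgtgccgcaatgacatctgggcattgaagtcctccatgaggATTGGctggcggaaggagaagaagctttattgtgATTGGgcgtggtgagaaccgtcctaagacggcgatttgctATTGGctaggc
Ccnb2: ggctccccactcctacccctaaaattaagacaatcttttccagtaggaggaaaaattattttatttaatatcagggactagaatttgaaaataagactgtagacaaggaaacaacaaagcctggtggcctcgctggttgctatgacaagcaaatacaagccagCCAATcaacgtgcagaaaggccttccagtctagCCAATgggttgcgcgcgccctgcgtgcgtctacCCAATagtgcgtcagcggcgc

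In S phase and replication, 16 of 39 genes were lower and 3 higher, with a median of -0.05, beside 28.3% lower and 25.1% higher over all genes. Rrm2, a subunit of ribonucleotide reductase, was at 464, 476 and 457 TPM in the untreated knockout and 572, 578 and 573 TPM in etoposide-treated wild type (-0.30 ± 0.02). Rfc2, a clamp loader subunit, differed by -0.41 ± 0.03. Pcna, the sliding clamp, and Gins4 and Cdc45, parts of the replicative helicase, were higher by 0.09 ± 0.02, 0.13 ± 0.03 and 0.31 ± 0.08. Among cyclins and their inhibitors, 5 of 19 were higher (26.3%) and 6 lower (31.6%), shares near those of all genes. Ccnd1, cyclin D1, was at 151, 149.5 and 151 TPM in the untreated knockout and 131, 133 and 133 TPM in etoposide-treated wild type, and both states lay below the untreated wild-type mean of 164 TPM.

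Of 58 histone genes listed as replication-dependent, 24 passed the expression filter. Of these, 12 were higher and 0 were lower in the untreated knockout, beside 25.1% and 28.3% of all genes. The median of the 24 was 0.53, and a gene near the filter could pass through the knockout alone. H1f2 (GRCm39 chr13:23922790-23923514, plus strand), a linker histone, was at 27.1, 29.7 and 29.3 TPM in the untreated knockout and 3.79, 3.31 and 3.15 TPM in etoposide-treated wild type. H2bc4 was at 14.9, 18.5 and 11.0 TPM in the untreated knockout and 3.10, 3.03 and 4.45 TPM in etoposide-treated wild type. H4c9 was at 9.65, 10.2 and 11.6 TPM in the untreated knockout and 4.39, 4.02 and 4.63 TPM in etoposide-treated wild type. The states did not overlap in any of the 3 genes, which for H1f2 was a condition of its ranking. The 3 genes differed by 2.75 ± 0.10, 1.79 ± 0.16 and 1.10 ± 0.12. H1f0, a replacement histone kept on the list although its transcript is polyadenylated, differed by 0.82 ± 0.05. Transcripts of the other genes mostly lack a poly(A) tail, and the libraries were made after poly(A) selection. Relative to untreated wild type, H1f2 differed by 2.60 in the knockout and -0.15 after etoposide. The levels of Lars2 and Mir6236 given above moved the same way as these genes, and their part in the result was not tested.

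The H1f2 promoter is shown because this gene had the highest difference of the genes named outside the 2-cell-like families. The CCAAT box was present in 18 of 23 histone genes with a window (78.3%), beside 37.5% of the 27025 genes in the table. It was also present in 10 of 12 windows of the 2-cell-like list (83.3%), so such a share is not particular to histone genes. The window lies at chr13:23738557-23738806 in GRCm38.p6 on the plus strand, and capitals mark the box.
H1f2: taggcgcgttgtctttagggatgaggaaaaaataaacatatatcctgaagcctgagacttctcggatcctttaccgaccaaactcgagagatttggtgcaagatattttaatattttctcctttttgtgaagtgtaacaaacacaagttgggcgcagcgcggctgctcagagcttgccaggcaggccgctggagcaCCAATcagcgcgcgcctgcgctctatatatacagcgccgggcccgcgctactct

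The stress response driven by ATF4 and unfolded protein was higher in the untreated knockout for 19 of 28 genes and lower for 3, with a median of 0.31, beside 25.1% higher and 28.3% lower over all genes. Atf4, its transcription factor, was at 278, 283 and 274 TPM in the untreated knockout and 217, 218 and 221 TPM in etoposide-treated wild type. Asns, asparagine synthetase, was at 875, 862 and 869 TPM in the untreated knockout and 686, 691 and 673 TPM in etoposide-treated wild type. Mthfd2, a mitochondrial folate enzyme, was at 89.7, 80.9 and 84.7 TPM in the untreated knockout and 59.5, 59.0 and 58.2 TPM in etoposide-treated wild type. None of the 3 overlapped between the states, and they differed by 0.35 ± 0.03, 0.35 ± 0.02 and 0.52 ± 0.04. Each lay above untreated wild type in the knockout and below it after etoposide, with Mthfd2 at 0.25 and -0.27 and Asns at 0.20 and -0.15. Aldh18a1, an enzyme of proline synthesis, differed by 0.57 ± 0.05. As a list, the knockout had 21 higher and 2 lower against untreated wild type, and etoposide-treated wild type had 6 higher and 15 lower. The shares of all genes were 28.0% higher and 21.4% lower in the knockout, and 21.0% higher and 13.4% lower after etoposide.

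The 3 lower members of the stress list were Ddit4, Sesn2 and Xbp1. Ddit4, an inhibitor of mTORC1 that p53 also induces, was at 71.5, 64.2 and 66.9 TPM in the untreated knockout and 123, 113 and 138 TPM in etoposide-treated wild type, against a mean of 36.1 TPM in untreated wild type. Sesn2, a relative of Sesn1 that is on the p53 list too, was at 159, 156 and 168 TPM in the untreated knockout and 200.1, 200.1 and 193 TPM in etoposide-treated wild type. Both genes were above baseline in each state, and the knockout held the smaller rise, at 0.89 and 0.45 against 1.76 and 0.74 after etoposide. Xbp1, a factor of the unfolded protein response, was lower as well (-0.21 ± 0.05).

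An ATF4-type composite element was looked for after the values were seen, as TGATGNAA on either strand. It was present in 5 of 26 stress genes with a window (19.2%), beside 3.91% of the genes in the table. Asns is shown since it is the most abundant of the genes named for the pathway. The window is at chr6:7693210-7693459 in GRCm38.p6 on the minus strand, with the match in capitals.
Asns: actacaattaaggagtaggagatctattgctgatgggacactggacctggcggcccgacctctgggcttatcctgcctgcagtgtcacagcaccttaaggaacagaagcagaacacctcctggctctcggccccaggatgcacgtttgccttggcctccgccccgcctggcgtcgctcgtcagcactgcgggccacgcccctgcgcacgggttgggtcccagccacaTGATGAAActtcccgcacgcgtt

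Glycolytic and hypoxia-responsive genes were lower in the untreated knockout for 21 of 33 genes and higher for 1, with a median of -0.29, beside 28.3% lower and 25.1% higher over all genes. Ldha, lactate dehydrogenase A, was at 570.5, 566 and 602 TPM in the untreated knockout and 1022, 929 and 1059 TPM in etoposide-treated wild type. Pgk1, phosphoglycerate kinase, was at 409, 426 and 433 TPM in the untreated knockout and 620.0, 563 and 639 TPM in etoposide-treated wild type. Their libraries did not overlap, and they differed by -0.79 ± 0.04 and -0.52 ± 0.04. Tpi1, triosephosphate isomerase, and Eno1, enolase, differed by -0.59 ± 0.04 and -0.41 ± 0.03. Slc2a3, the high-affinity glucose transporter, was the 1 higher member, at 1323, 1244 and 1293 TPM in the untreated knockout and 905, 884 and 936 TPM in etoposide-treated wild type (0.50 ± 0.04). The knockout side carried most of the enzyme differences, with Ldha at -0.83 and Eno1 at -0.45 against untreated wild type, and -0.04 and -0.04 after etoposide, which did not pass. Over the list, 4 were higher and 24 lower in the knockout, and 4 higher and 8 lower after etoposide. The shares of all genes were 28.0% higher and 21.4% lower in the knockout, and 21.0% higher and 13.4% lower after etoposide. The core hypoxia letters ACGTG were present in 18 of 31 windows (58.1%), beside 18.5% of the genes in the table. They were also present in 12 of 21 windows of the germline and meiosis list (57.1%), so such a share is not particular to this list.

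Of 78 mitochondrial ribosomal protein genes, 39 were lower and 8 higher, which leaves 31 without a call, and the median was -0.15. Of 50 complex I genes, 29 were lower and 6 higher, which leaves 15, and the median was -0.18. Over all genes 28.3% were lower and 25.1% higher. Mrpl2 was at 71.4, 68.6 and 73.2 TPM in the untreated knockout and 137, 143 and 135 TPM in etoposide-treated wild type. Mrpl11 was at 14.3, 16.1 and 16.5 TPM in the untreated knockout and 44.1, 44.3 and 46.3 TPM in etoposide-treated wild type. These differed by -0.95 ± 0.03 and -1.47 ± 0.06 without overlap. Mrpl24 and Mrpl33 differed by -0.99 ± 0.04 and -1.02 ± 0.05. Foxred1, an assembly factor of complex I, and the subunit genes Ndufa7 and Ndufs3 differed by -1.08 ± 0.04, -0.64 ± 0.03 and -0.51 ± 0.03, while the assembly factor genes Ndufaf5 and Ndufaf4 were higher by 0.37 ± 0.07 and 0.25 ± 0.04. The median of the 75 cytosolic ribosomal protein genes was -0.01, with 13 higher and 16 lower. Against untreated wild type the mitochondrial ribosome had 5 higher and 43 lower in the knockout, and 5 higher and 13 lower after etoposide. The shares of all genes were 28.0% higher and 21.4% lower in the knockout, and 21.0% higher and 13.4% lower after etoposide.

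Naive pluripotency genes were higher in the untreated knockout for 12 of 26 members and lower for 3, with a median of 0.10, beside 25.1% higher and 28.3% lower over all genes. Zfp42, a marker of naive cells also called Rex1, was at 763, 748 and 752 TPM in the untreated knockout and 654, 654 and 638 TPM in etoposide-treated wild type. Nr0b1, a nuclear receptor that supports self-renewal, was at 76.2, 77.4 and 83.8 TPM in the untreated knockout and 57.6, 58.1 and 57.1 TPM in etoposide-treated wild type. Both were separate between the states, with differences of 0.22 ± 0.02 and 0.45 ± 0.05, and Fgf4 and Sall4, a growth factor and a zinc finger factor of the same network, differed by 0.38 ± 0.03 and 0.30 ± 0.03. In Zfp42, Sall4 and Nr0b1 the knockout value against untreated wild type did not pass the test (0.03, 0.03 and 0.07), and the etoposide value did (-0.19, -0.28 and -0.38). Utf1, a chromatin factor of pluripotent cells, was lower at 95.7, 96.2 and 96.2 TPM in the untreated knockout, against 152, 152 and 143 TPM in etoposide-treated wild type, and there the knockout side was displaced (-0.71) and the etoposide value of -0.08 did not pass. Over the list, the knockout had 2 higher and 7 lower against untreated wild type, and etoposide-treated wild type had 1 higher and 15 lower. The shares of all genes were 28.0% higher and 21.4% lower in the knockout, and 21.0% higher and 13.4% lower after etoposide.

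Of 19 Nodal and Lefty pathway genes, 7 were lower (36.8%) and 3 higher (15.8%), beside 28.3% and 25.1% of all genes. Lefty1 and Lefty2 were among the lower ones, and the receptor gene Acvr2a was higher by 0.43 ± 0.10. Another lower member was Trp53inp1 (-0.43 ± 0.04). Like most p53 targets, it lay above untreated wild type in the knockout (0.92) and farther above it after etoposide (1.36). Nodal itself averaged 158 ± 1.12 TPM in the untreated knockout and 154 ± 2.85 TPM in etoposide-treated wild type (SD, n = 3 each), which did not pass the test, and was looked up after the results were seen. Both states were above untreated wild type for Nodal, by 0.44 in the knockout and 0.40 after etoposide. Feedback genes of FGF and ERK signalling had 6 of 15 higher (40.0%) and 1 lower (6.67%). Dusp6, a phosphatase that ERK induces against itself, was at 18.3, 16.3 and 16.1 TPM in the untreated knockout and 9.55, 9.39 and 9.62 TPM in etoposide-treated wild type, and Spry2, another feedback inhibitor, was higher by 0.34 ± 0.03. Of 16 BMP and ID genes, 6 were higher (37.5%) and 3 lower (18.8%), with Bmp4 higher by 0.69 ± 0.10 and Id4 by 0.78 ± 0.08. Against untreated wild type, Bmp4 was at 0.18 in the knockout, which did not pass the test, and -0.51 after etoposide, which did. Id4 was at 0.54 and -0.25, and both passed. The ligand gene Bmp7 was among the lower ones, at -0.71 ± 0.09, with 0.47 in the knockout and 1.18 after etoposide against untreated wild type.

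The lineage genes named here were expressed at low levels, apart from Lama1. Of 9 tested primitive streak and mesoderm genes, 5 were higher and 1 lower, beside 25.1% and 28.3% of all genes. Gsc, an organiser gene, was at 4.07, 3.20 and 3.68 TPM in the untreated knockout and 2.42, 2.07 and 1.44 TPM in etoposide-treated wild type, and Wnt3, the ligand that starts the streak, was at 0.743, 0.566 and 0.839 TPM in the untreated knockout and 2.52, 2.07 and 2.63 TPM in etoposide-treated wild type. Their displacement from untreated wild type passed the test after etoposide (-0.85 and 1.22) and not in the knockout (-0.20 and 0.23). Lama1, a laminin chain of the primitive endoderm, was at 99.1, 96.2 and 106 TPM in the untreated knockout and 55.7, 58.9 and 59.0 TPM in etoposide-treated wild type (0.78 ± 0.04), within a list of 11 tested endoderm genes of which 4 were higher and 3 lower. The 5 extraembryonic endoderm markers, a separate list, summed to 2.55 to 3.00 TPM in the untreated knockout and 1.80 to 2.58 TPM in etoposide-treated wild type, with Afp at 0 in the knockout libraries. Their part in the Lama1 difference was not tested.

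Of 19 interferon and DNA sensing genes, 9 were lower and 1 higher, beside 28.3% lower and 25.1% higher over all genes. Ifitm3, a membrane protein that restricts viral entry, was at 196, 202 and 186 TPM in the untreated knockout and 338, 335 and 333 TPM in etoposide-treated wild type. Zbp1, a sensor of Z-form nucleic acid, was at 0.731, 0.998 and 1.10 TPM in the untreated knockout and 3.55, 3.97 and 4.13 TPM in etoposide-treated wild type. Both were separate between the states, at -0.78 ± 0.03 and -1.33 ± 0.13, and both were below untreated wild type in the knockout (-0.45 and -0.50) and above it after etoposide (0.34 and 0.83). Irf9, a transcription factor of interferon signalling, was the 1 higher member (0.32 ± 0.04). Of 16 genes of class I antigen presentation, 6 were higher and 5 lower (37.5% and 31.2%), shares that lie not far from those of all genes. The lowest was Tap1, at the value given above, while B2m, the light chain, was higher by 0.42 ± 0.08.

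Meiotic cohesin genes were among the germline genes that were lower. Of 24 germline and meiosis genes, 11 were lower and 5 higher, with a median of -0.27, beside 28.3% lower and 25.1% higher over all genes. Smc1b, a meiotic cohesin core subunit, was at 1.5, 1.71 and 1.15 TPM in the untreated knockout and 5.37, 5.85 and 5.03 TPM in etoposide-treated wild type, and Stag3, its partner, was at 17.0, 17.6 and 16.8 TPM in the untreated knockout and 28.2, 31.3 and 29.4 TPM in etoposide-treated wild type. These differed by -1.39 ± 0.10 and -0.76 ± 0.06 without overlap. Ddx4, the germ cell helicase Vasa, was higher by 0.57 ± 0.12. The list of the SETD1 complex, which methylates histone H3 at lysine 4, and its relatives had 10 of 27 genes higher and 4 lower. Over all genes 25.1% were higher and 28.3% lower. Bod1l, the targeted gene, is on this list and was 1 of the 4 lower members. Wdr5, a shared core subunit, was at 362, 372 and 373 TPM in the untreated knockout and 299, 318 and 316 TPM in etoposide-treated wild type, and the methyltransferase genes Kmt2a and Kmt2b were higher by 0.31 ± 0.05 and 0.20 ± 0.03. Kdm5b, a demethylase for the same residue, was lower (-0.18 ± 0.03). Against untreated wild type, Wdr5 was displaced after etoposide (-0.20) and its knockout value of 0.04 did not pass the test. On that baseline the SETD1 list had 3 higher and 9 lower in the knockout, and 0 higher and 9 lower after etoposide. The shares of all genes were 28.0% higher and 21.4% lower in the knockout, and 21.0% higher and 13.4% lower after etoposide.

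The balance of higher and lower genes shifted with abundance. Among 3388 genes with a mean of 1 to 5 TPM, 14% were higher and 26.0% were lower in the untreated knockout. Among 2034 genes of 100 TPM or more, 37.8% were higher and 22.8% were lower, though only 10 and 36 of these passed 1.5-fold. By the length of the gene on the chromosome, the 4463 genes under 10 kb had 21.4% higher and 26.7% lower. The 452 genes of 200 kb or more had 18.4% higher and 31.2% lower, with a median of -0.06. Their medians against untreated wild type were 0.08 in the knockout and 0.098 after etoposide. Length and abundance are linked in these bins, with a median level of 10.1 TPM in the longest bin and 25.9 TPM for genes of 10 to 30 kb.

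**Figure D5:**
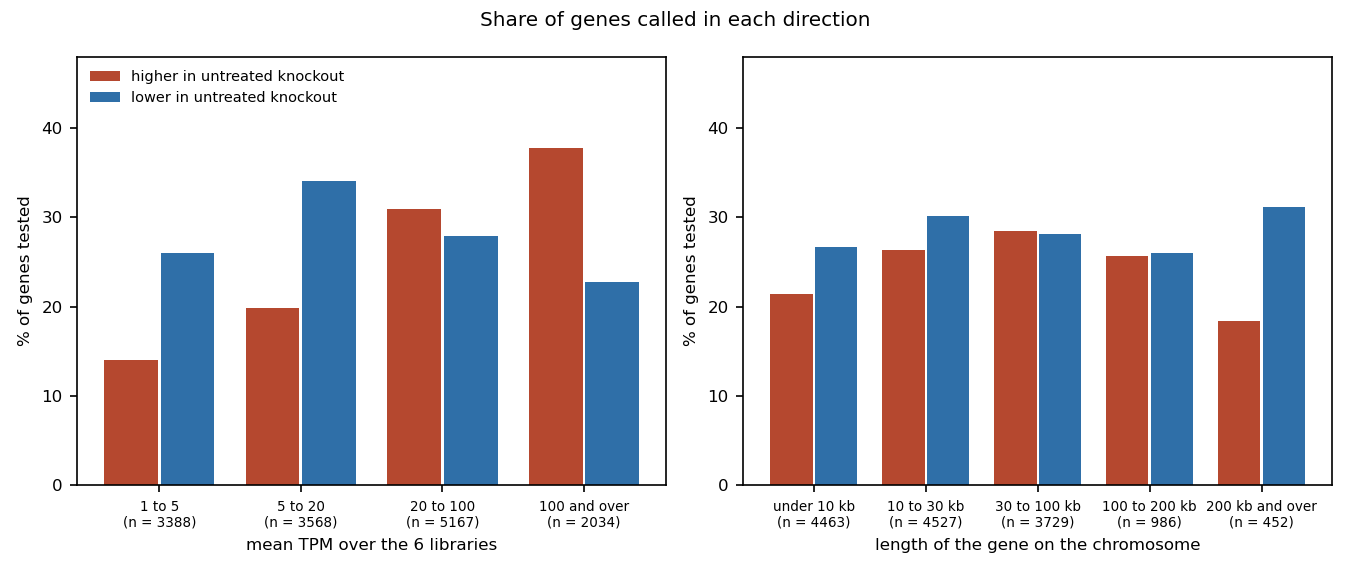
Share of tested genes called higher (red) or lower (blue) in the untreated knockout than in etoposide-treated wild type, by mean TPM over the 6 libraries (left) and by length of the gene on the chromosome (right), with the number of genes per bin. The share of higher genes goes from 14% at 1 to 5 TPM to 37.8% at 100 TPM or more.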

How the data were processed

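Poly(A) RNA of mouse embryonic stem cells was sequenced as 12 libraries in 4 groups of 3, and the 6 libraries of the untreated knockout and etoposide-treated wild type were compared. Per the labels' protocols, the libraries were made with a strand-specific kit after poly(A) selection and ribosomal RNA removal. Per the submitters' processing notes, the tools were Trim Galore 0.6.6, cutadapt 3.4, HISAT2 2.2.1 and StringTie 2.2.1 with build GRCm39, and strand use in counting is not given in the sources used here. The deposited gene tables give TPM, FPKM and coverage per gene, per the file headers. TPM, as the authors deposited it, was the unit tested. Deposited coverage and FPKM were used to work out the aligned bases per library, from the most common ratio of coverage to FPKM. That ratio was shared by 26.9% to 27.5% of the genes used for it in each library, so the aligned bases are an estimate. FPKM was also an alternative unit.

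Rows of 1 gene ID were summed, and genes with a mean of at least 1 TPM over the 6 libraries were kept. limma 3.58.1 (R 4.3.3) was fitted to log2(TPM + 1) in all 12 libraries with 4 group means and a variance trend, and p-values were adjusted by the Benjamini-Hochberg method over 14157 genes, with an adjusted p under 0.05 called. The pseudocount of 1 understates the change of low genes. Differences from untreated wild type came from the same fit. Read counts were not used here, so no counting interval is given. Tables and plots were made with Python 3.11.15, pandas 2.3.3, numpy 2.4.6 and matplotlib 3.10.9, and the procedure was tested on simulated data.

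The text names Bod1l, the 15 highest and the 15 lowest called differences without overlap between libraries, the 10 highest and 10 lowest of those with at least 20 TPM, and up to 4 called members per direction and list with the lowest adjusted p. Names of clones, gene models and pseudogenes were left out, and some genes the rule picks are not reported here. The comparison, the gene lists and their members were chosen with earlier results of these data known. Promoter windows of 250 bases came from RefSeq (GRCm38.p6) and were matched by symbol, for 10477 of the 14157 genes, so motif shares over called genes are not given. The strict p53 element, CCAAT and ACGTG were searched on both strands, and the ATF4-type element was added after the data were seen. The letters TGACGTCA and CCGGAAG were also planned and searched, and TTTGAA and TATAAA were further additions. Shares for these other letters are not reported here. Alternatives covered the pseudocount, the filter, FPKM, scaling, the libraries in the fit, robust variance, the replicate number as a block and leaving out each library.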

Additional observations from a re-analysis of the deposited data

How the results depend on the processing

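Counts of genes past a fold threshold moved with the scale and the filter, and the direction of the imbalance toward lower genes held at 1.5-fold and 2-fold in each setting below. With a pseudocount of 0.1, genes higher by 1.5-fold numbered 503 (329 as reported) and by 2-fold 160 (84), and genes lower by 2-fold numbered 694 (401). With a mean of at least 5 TPM there were 148 higher and 916 lower at 1.5-fold (1414 lower as reported), and 34 higher and 266 lower at 2-fold, out of fewer genes tested. With FPKM, there were 130 higher and 912 lower at 1.5-fold, and 32 higher and 223 lower at 2-fold. Under quantile normalization 533 genes were higher by 1.5-fold, and 56.3% of calls were higher, against 46.9%. The cause of the shifts under FPKM and quantile normalization was not tested. Without each library in turn, calls ranged from 3053 to 3310 higher and 3675 to 3773 lower, and the share of calls that were higher from 44.9% to 47.3%.

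Same-numbered replicates did not deviate together, with correlations of -0.047, 0.02 and -0.002, and the labels do not pair them. The replicate block gave 3503 higher and 3955 lower genes. Of 4724 values of 299 named genes under the alternatives, 4619 kept direction and call, 105 values of 26 genes lost the call and 0 reversed. Those that lost it most often included Idi1, Fen1 and Smad9, and Top2b lost it in 5 settings and Tigar in 3. The 2-cell-like genes had 14 higher members with FPKM and 10 with at least 5 TPM, the histones 7 and 5, and the p53 targets 5 with quantile normalization. The 2-cell-like genes had 1 lower member in place of 2 without the third library of either state. Values of TPM carry no read depth, so the limit that depth sets on low genes is unknown.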
